A study of Mus musculus with 8 samples.

Results

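The 39 genes described here serve protein folding and secretion in the endoplasmic reticulum (ER). They comprise chaperones and folding enzymes, sensors and transcription factors of the ER stress response, factors of ER-associated degradation, targets of the transcription factor ATF4, and genes of translocation, vesicle coats and retrieval. The list was made by gene name, with earlier results of these data known. Each gene was represented by the probe with its platform symbol, an older synonym being accepted, and the highest mean over the 8 arrays. A named probe was found for 38 of the 39, among 19057 genes with one, and Dnajb11 was not analysed here.

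The arrays were Illumina expression arrays of adult C57BL/6J mouse bone marrow stromal cells, called mesenchymal stem cells (MSCs), and of cells made from them, and the series title names the reprogramming of lineage-committed cells. Reprogrammed cells had 3 arrays, labelled adipocytes, chondrocytes and osteocytes and each titled p1. Differentiated cells likewise had 3, of adipocytes (title d7), of chondrocytes (title d28) and of osteocytes (title d21). The 2 arrays of undifferentiated MSCs are titled d0 and p4. The labels used here do not say what d and p stand for, how cells were differentiated or reprogrammed, or whether arrays came from separate cultures or animals. P-values therefore measure the spread between arrays, here between lineages and between both MSC arrays.

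Proteins bound for the cell surface or the outside enter the ER through the Sec61 channel, fold with the help of chaperones such as BiP and of disulfide isomerases, and leave in vesicles coated with COPII. When unfolded protein accumulates, the sensors IRE1, PERK and ATF6 start the unfolded protein response: IRE1 splices Xbp1 mRNA, PERK phosphorylates the initiation factor eIF2 alpha so that ATF4 is translated, and cleaved ATF6 raises chaperone genes. Osteoblasts and chondrocytes secrete collagen in bulk and depend on this machinery, whereas ATF4 also answers a shortage of amino acids outside the ER. An mRNA level reports neither the splicing of Xbp1 nor the phosphorylation and cleavage of the sensors.

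Values are the authors' deposited log2 signals, which shared a median of 3.901 on every array. The labels were checked with markers of each cell type at a log2 signal of at least 6. The differentiated adipocyte array reached it at 8 of 9 adipocyte markers, against 2 to 4 on the other arrays. The fat cell hormone gene Adipoq stood at 14.6 there, at 10.55 on differentiated chondrocytes and from 4.35 to 8.58 on the rest. The differentiated chondrocyte array reached a signal of 6 at 4 of 9 chondrocyte markers, against 1 or 2 on the other arrays. The cartilage proteoglycan gene Acan, however, stood at 5.66. The chondrocyte marker Col2a1 was at 9.153 there and at 9.738 to 10.415 on the reprogrammed arrays. On the same differentiated chondrocyte array 4 of 7 osteoblast and osteocyte markers reached the level too, with the bone genes Ibsp at 11.7 and Bglap at 11.0. On the differentiated osteocyte array 2 of 7 did so, against 3 on MSC p4 and on reprogrammed chondrocytes, and the osteocyte markers Dmp1 and Sost stood at 2.61 and 1.31. Mesenchymal stromal markers reached it at 5 of 8 on MSC d0 and 6 of 8 on MSC p4, against 4 to 7 on the other arrays. Macrophage and monocyte markers reached the level at 4 of 11 on the differentiated chondrocyte array, against 1 or 2 on the others, and endothelial markers at 0 of 6 on every array. The part that these cells play in any value of the 39 genes was not tested. Arrays with d in the title had 4317 to 5204 probes at 0, and those with p had 6815 to 7652. By this letter the arrays form 2 sets, with reprogrammed cells in the p set and differentiated cells in the d set, and only the MSCs have 1 array in each. Differences are therefore also given from a blocked fit, in which the array set is a term of the model. That term is set by the difference between MSC p4 and MSC d0 alone. Each blocked value thus rests on 1 MSC array per set and is less precise than the fit on state alone.

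Of the 38 genes, 33 reached a log2 signal of 6 on at least 2 arrays and were tested among 8317 genes. Atf3 reached it on the differentiated adipocyte array alone, and Atf6, Canx, Edem1 and Eif2ak3 on none. Differences were fitted with limma on log2(signal + 16), which damps dim genes. No ER gene passed at an adjusted p of 0.05 in any of the comparisons between states. Between reprogrammed and differentiated cells 54 genes of the array passed, or 0.649%, 0.252% higher and 0.397% lower. Without adjustment, at p under 0.05, 8 ER genes were higher and 4 were lower, against 10.9% and 11.7% of all genes. In the comparison of differentiated cells with MSCs 5 genes of the array passed, or 0.0601%, with 1 ER gene higher and 4 lower unadjusted, against 4.64% and 5.74%. Reprogrammed cells against MSCs gave 0 genes of the array (0%) and 0 ER genes unadjusted in either direction, against 0.12% and 0.204%. The differentiated arrays enter both of the comparisons that involve them, which are therefore not independent.

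Most folding and transport genes had higher means in reprogrammed than in differentiated cells, and most stress genes had lower ones. Every reprogrammed array exceeded every differentiated array at 11 of the 33 genes (33.3%), against 13.7% of all genes, and lay below every one at 4 (12.1%), against 16.2%. The 11 were Calr, Dnajc3, Hsp90b1, Hspa5, Hyou1, Kdelr2, Manf, Pdia4, Pdia6, Sdf2l1 and Sec23a, and the 4 were Dnajb9, Ern1, Ppp1r15a and Xbp1. The median fitted log2 difference, reprogrammed minus differentiated, was 0.41 over the 33 genes, 22 of them above 0, and -0.04 over all genes tested, 47.6% of them above 0. It was 0.58 over 12 chaperones and folding enzymes, 10 of them above 0, and 0.55 over 8 genes of translocation, COPII and retrieval, all 8 above 0. It was -0.37 over 7 sensors and transcription factors, 2 of them above 0, and -0.99 over 4 ATF4 targets, 1 of them above 0. In the blocked fit the median of the 33 was 0.06, that of the chaperones 0.09 (8 of 12 above 0), of the transport genes 0.49 (7 of 8), of the regulators -0.28 (2 of 7) and of the ATF4 targets -2.41 (0 of 4). That fit turned the direction of 8 of the 33, Asns, Atf4, Creb3l2, Dnajc3, Herpud1, Kdelr3, Pdia6 and Sel1l. Without the differentiated adipocyte array the median of the 33 was 0.15. In differentiated cells minus MSCs the median of the 33 was -0.25, with 11 above 0 against 49.7% of all genes, and 0.02 without the differentiated adipocyte array. In reprogrammed cells minus MSCs it was 0.12, with 21 above 0 against 44.9%, and -0.09 without MSC d0.

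**Figure D1:**
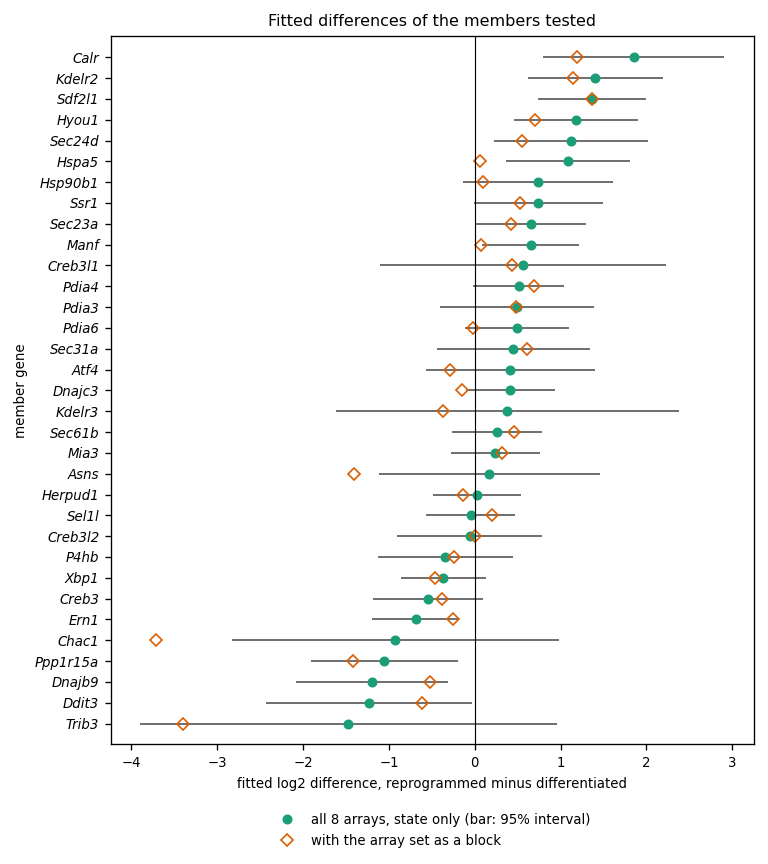
Fitted log2 differences, reprogrammed minus differentiated (horizontal axis), of the 33 genes tested, 1 row per gene, with filled points and 95% intervals from the fit on all 8 arrays and open diamonds from the blocked fit. Calr stands at the top at 1.85 and Trib3 at the bottom at -1.47, and the diamonds of Hspa5 (0.06), Asns (-1.41), Chac1 (-3.72) and Trib3 (-3.40) lie far from their points.

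Chaperones and folding enzymes made up 9 of the 11 genes that were higher on every reprogrammed array. Each gene's values are given here as deposited log2 signals, in the order adipocytes, chondrocytes and osteocytes within a state and d0, then p4 for MSCs. Hspa5, which encodes BiP, the main Hsp70 chaperone of the ER, stood at 11.01, 10.63 and 10.38 in reprogrammed cells, 9.67, 9.61 and 9.43 in differentiated cells and 9.91 and 10.95 in MSCs. All reprogrammed arrays were above all differentiated ones, MSC d0 lay between the states, and MSC p4 lay among the reprogrammed arrays. The fitted difference, reprogrammed minus differentiated, was 1.09 (SE 0.31, adjusted p = 0.111), but it was 0.06 in the blocked fit. In bulk RNA a change in the make-up of the culture and a change of RNA per cell cannot be told apart, here or at any later gene.

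Calr encodes calreticulin, a calcium-binding chaperone of glycoproteins. It stood at 11.17, 10.66 and 12.38 in reprogrammed cells, 9.09, 9.62 and 9.88 in differentiated cells and 10.10 and 10.76 in MSCs. The reprogrammed osteocyte array was the highest of the 8, and the states did not overlap. Calr had the largest fitted difference of the chaperones, at 1.85 (SE 0.46, adjusted p = 0.09), and 1.19 in the blocked fit. Sdf2l1, a stress-induced partner of BiP, stood at 8.35, 8.49 and 8.72 in reprogrammed cells, 6.99, 6.58 and 7.57 in differentiated cells and 7.99 and 7.99 in MSCs. Here all 3 states were apart, with both MSC arrays between the others. Its difference of 1.36 (SE 0.27, adjusted p = 0.0713) had the lowest adjusted p among the 33 genes, and it was 1.36 in the blocked fit.

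Hyou1 encodes the large ER chaperone that exchanges the nucleotide of BiP, and stood at 7.83, 6.90 and 7.80 in reprogrammed cells, 6.21, 5.78 and 6.51 in differentiated cells and 6.67 and 7.21 in MSCs. The states did not overlap, though MSC d0 lay between them by a small margin. The difference was 1.18 (SE 0.31, adjusted p = 0.0995), and 0.70 in the blocked fit. Manf, an ER-resident factor that is also secreted under stress, stood at 6.88, 6.61 and 6.53 in reprogrammed cells, 5.62, 6.13 and 5.91 in differentiated cells and 6.12 and 6.80 in MSCs. Its differentiated adipocyte and osteocyte arrays were under 6, so the offset damped its difference of 0.65 (SE 0.24, adjusted p = 0.17). That difference was 0.07 in the blocked fit. Hsp90b1, the Hsp90 of the ER, stood at 13.73, 13.91 and 14.02 in reprogrammed cells, 12.32, 13.68 and 13.43 in differentiated cells and 13.31 and 13.95 in MSCs. Only the differentiated adipocyte array stood well below the rest, and its fitted difference of 0.74 (SE 0.38, adjusted p = 0.288) was 0.10 in the blocked fit.

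Among the disulfide isomerases, Pdia4 (0.51) and Pdia6 (0.49) were higher on every reprogrammed than on every differentiated array, with adjusted p of 0.237 and 0.301. In the blocked fit Pdia4 differed by 0.69, and Pdia6 turned to -0.03. Pdia3, which pairs with calreticulin, overlapped between the states: it stood at 13.07, 13.15 and 13.44 in reprogrammed cells and 11.79, 13.22 and 13.18 in differentiated cells, with the differentiated adipocyte array alone under 13. P4hb, an isomerase that is also the beta subunit of the enzyme hydroxylating collagen prolines, had a negative difference, as had Dnajb9. It stood at 12.83, 12.95 and 12.88 in reprogrammed cells, 12.54, 13.93 and 13.23 in differentiated cells and 13.33 and 13.22 in MSCs, so that every reprogrammed array lay below both MSC arrays while the differentiated arrays spread to both sides. Dnajc3, a co-chaperone of BiP and inhibitor of PERK, stood at 8.54, 8.74 and 8.77 in reprogrammed cells, 8.30, 8.19 and 8.27 in differentiated cells and 8.41 and 8.99 in MSCs, a difference of 0.41 (SE 0.22, adjusted p = 0.314) that was -0.15 in the blocked fit.

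Dnajb9 went the other way. It encodes ERdj4, a co-chaperone that recruits BiP to IRE1, and stood at 9.95, 10.30 and 10.19 in reprogrammed cells, 12.18, 10.81 and 11.08 in differentiated cells and 10.31 and 9.62 in MSCs. All 3 differentiated arrays were above the other 5, the adipocyte array highest. The difference, reprogrammed minus differentiated, was -1.20 (SE 0.38, adjusted p = 0.131), and -0.52 in the blocked fit. It was also the ER gene with the lowest adjusted p in differentiated cells minus MSCs, at 1.38 (SE 0.43, adjusted p = 0.352), and 1.04 within the d-titled arrays.

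**Figure D2:**
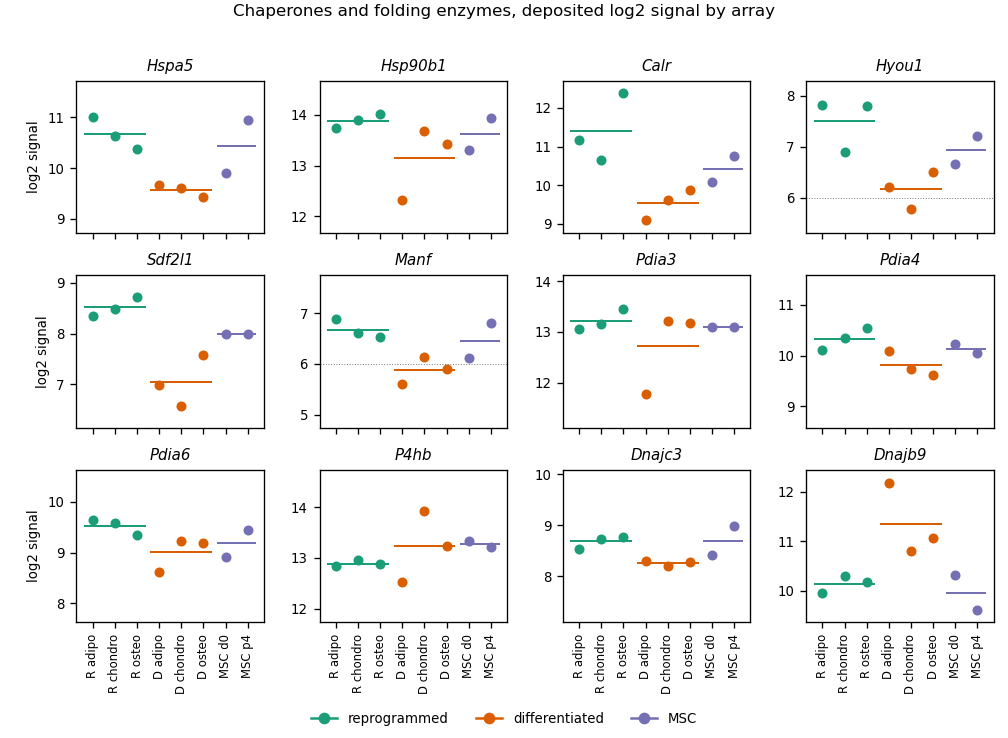
Deposited log2 signal (vertical axes, each panel with its own range) of 12 chaperones and folding enzymes on the 8 arrays (horizontal axes), with points for arrays and lines for state means; R is reprogrammed, D differentiated, and the dotted line marks a signal of 6. Hspa5, Calr, Hyou1 and Sdf2l1 show all reprogrammed points above all differentiated points, and Dnajb9 shows the reverse.

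Promoter sequences are shown because chaperone genes are the classical carriers of the ER stress response element (ERSE, the letters CCAAT and CCACG with 9 bases between them), which ATF6 and XBP1 bind together with NF-Y. RefSeq windows of assembly GRCm38.p6, from 250 bases before to 50 after a start, were found for 34 of the 39 genes. The names without one are Atf6, Creb3l1, Hyou1, Kdelr2 and Manf. The element was found on either strand in 6 of 34 (17.6%), against 37 of 27025 genes with a window (0.137%). Each site is printed 5′ to 3′ on its own strand, with the fixed letters in capitals.
Hspa5, chr2:34772025-34772043, plus strand: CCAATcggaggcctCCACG
Calr, chr8:84847075-84847093, plus strand: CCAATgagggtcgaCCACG
Dnajc3, chr14:118937827-118937845, plus strand: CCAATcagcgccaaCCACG
Pdia6, chr12:17266491-17266509, plus strand: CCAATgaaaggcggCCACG
Canx, chr11:50325800-50325818, minus strand: CCAATcaccacgctCCACG
Hsp90b1, chr10:86705638-86705656, minus strand: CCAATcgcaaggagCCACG
Hsp90b1, chr10:86705533-86705551, plus strand: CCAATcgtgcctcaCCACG
The Hspa5 window, chr2:34771840-34772139 on the plus strand, holds its site from 65 to 47 bases before the start.
Hspa5: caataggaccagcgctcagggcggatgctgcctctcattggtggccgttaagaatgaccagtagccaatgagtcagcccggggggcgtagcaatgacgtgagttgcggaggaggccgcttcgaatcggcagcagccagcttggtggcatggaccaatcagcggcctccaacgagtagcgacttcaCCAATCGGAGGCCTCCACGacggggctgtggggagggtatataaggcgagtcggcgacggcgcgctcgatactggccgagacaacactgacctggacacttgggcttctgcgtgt

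Of the 5 genes with this element that were tested, Hspa5, Calr, Dnajc3, Hsp90b1 and Pdia6, all were higher on every reprogrammed than on every differentiated array, as were 13.7% of all genes. In the blocked fit Calr kept a difference of 1.19, whereas Hspa5 (0.06), Hsp90b1 (0.10), Pdia6 (-0.03) and Dnajc3 (-0.15) were near or below 0. All 5 were also higher on MSC p4 than on MSC d0, by 0.52 to 1.03. Sdf2l1, without a full match in its window, was likewise higher on every reprogrammed array. The arrays measured no binding, and a match is only a description of letters.

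Genes of translocation, COPII and retrieval were lowest in differentiated adipocytes and, at several genes, in differentiated osteocytes as well. Kdelr2 and Kdelr3 encode receptors that return escaped ER proteins from the Golgi. Kdelr2 stood at 11.23, 11.02 and 11.25 in reprogrammed cells, 9.01, 10.36 and 9.87 in differentiated cells and 10.70 and 10.96 in MSCs. The 3 states did not overlap, differentiated cells being lowest and reprogrammed cells highest. Its difference, reprogrammed minus differentiated, was 1.40 (SE 0.34, adjusted p = 0.0882), and 1.14 in the blocked fit, and differentiated cells minus MSCs gave -1.07 (SE 0.38, adjusted p = 0.399).

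Kdelr3 varied by lineage instead. It stood at 9.80, 9.86 and 9.17 in reprogrammed cells, 7.41, 11.42 and 8.75 in differentiated cells and 9.51 and 10.27 in MSCs. The differentiated chondrocyte array was the highest of the 8 and the differentiated adipocyte array the lowest, and the state difference of 0.38 had an interval from -1.62 to 2.38 and turned to -0.37 in the blocked fit. Creb3l1, a membrane-bound transcription factor known in mouse osteoblasts as an activator of the type I collagen gene, had a like split. It stood at 6.53, 6.28 and 8.66 in reprogrammed cells, 5.08, 7.95 and 6.42 in differentiated cells and 6.28 and 6.43 in MSCs. The reprogrammed osteocyte and differentiated chondrocyte arrays stood out above the others, and the differentiated adipocyte array was alone under 6.

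Sec24d and Sec23a form the inner coat of COPII vesicles, where SEC24 proteins choose cargo. Sec24d stood at 7.89, 8.11 and 7.25 in reprogrammed cells, 6.03, 7.37 and 6.06 in differentiated cells and 7.55 and 8.16 in MSCs. Every differentiated array was below both MSC arrays, and the differentiated chondrocyte array passed the reprogrammed osteocyte array. The fitted difference was 1.12 (SE 0.39, adjusted p = 0.148) for reprogrammed minus differentiated cells and -1.21 (SE 0.43, adjusted p = 0.404) for differentiated cells minus MSCs, and 0.55 and -0.93 in the blocked fit. Sec23a stood at 7.64, 7.60 and 7.48 in reprogrammed cells, 6.52, 7.48 and 6.54 in differentiated cells and 7.26 and 7.52 in MSCs. Its states were parted only in the third decimal, between differentiated chondrocytes and reprogrammed osteocytes, and the difference was 0.65 (SE 0.28, adjusted p = 0.217).

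Ssr1, a subunit of the complex beside the Sec61 channel, stood at 8.75, 8.71 and 8.48 in reprogrammed cells, 7.31, 8.60 and 7.67 in differentiated cells and 8.57 and 8.79 in MSCs. Differentiated adipocytes and osteocytes were the 2 low arrays, and the difference was 0.74 (SE 0.32, adjusted p = 0.225). Sec31a, of the outer COPII coat, stood at 9.02, 9.10 and 9.82 in reprogrammed cells, 8.16, 9.59 and 8.81 in differentiated cells and 9.27 and 9.10 in MSCs, with overlap. Its other bright probe ran against this one over the 8 arrays (r = -0.69), so its pattern depends on the probe. Sec61b, of the channel itself, and Mia3, which loads collagen into carriers, had differences of 0.26 and 0.24 with overlapping arrays, and adjusted p of 0.523 and 0.557.

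**Figure D3:**
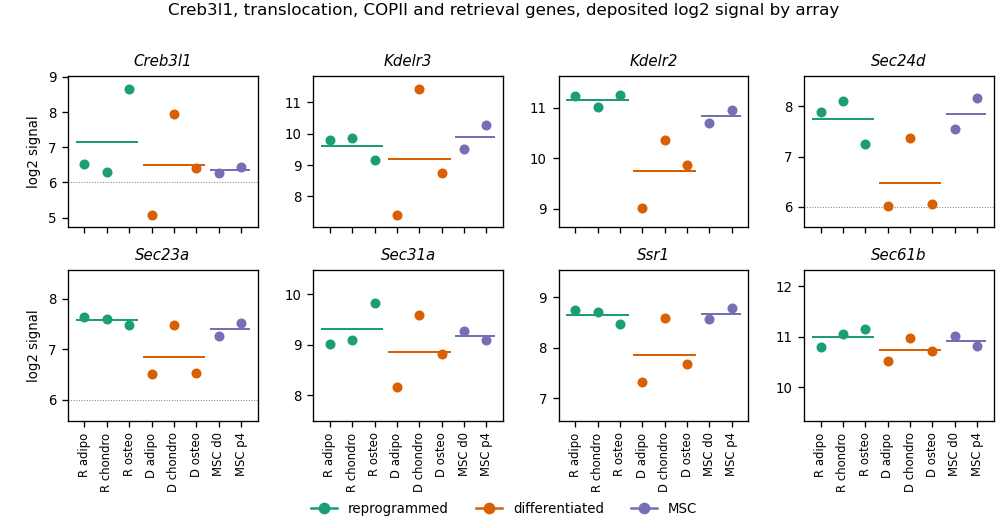
Deposited log2 signal (vertical axes, each panel with its own range) of Creb3l1 and of 7 translocation, COPII and retrieval genes on the 8 arrays (horizontal axes), with points for arrays and lines for state means; R is reprogrammed, D differentiated, and the dotted line marks a signal of 6. Kdelr2 separates the states, with reprogrammed arrays from 11.02 to 11.25 above differentiated arrays from 9.01 to 10.36, whereas Kdelr3 and Creb3l1 spread by lineage.

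An unfolded protein response element (UPRE, TGACGTGG) is a site of XBP1 and ATF6. It was found in 3 of the 34 ER genes with a window (8.82%), against 193 of 27025 genes (0.714%). All 3 were genes of this secretory group, Kdelr3, Sec23a and Sec24d. The element shares TGACGT with the cyclic AMP response element, and its reverse complement begins with the CCACG of the ERSE. The Sec24d window, chr3:123267246-123267545 on the plus strand, is printed with the element in capitals, 26 to 19 bases before the start.
Sec24d: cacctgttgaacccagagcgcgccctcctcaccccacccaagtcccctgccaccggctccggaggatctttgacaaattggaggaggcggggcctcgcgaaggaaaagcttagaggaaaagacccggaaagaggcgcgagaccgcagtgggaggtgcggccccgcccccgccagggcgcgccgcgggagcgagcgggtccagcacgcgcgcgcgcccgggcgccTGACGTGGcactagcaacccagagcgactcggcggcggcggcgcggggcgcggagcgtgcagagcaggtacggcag
Sec24d and Sec23a were higher in reprogrammed than in differentiated cells at an unadjusted p under 0.05, and Kdelr3 was not.

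The degradation factors Herpud1 and Sel1l were among the steadiest of the ER genes, beside Mia3. At Mia3 this depended on the probe, since another bright one ran from 5.38 in differentiated adipocytes to 7.59 in reprogrammed osteocytes. Herpud1, which organises the retrotranslocation complex, stood at 11.79, 11.92 and 12.00 in reprogrammed cells, 11.94, 12.12 and 11.58 in differentiated cells and 11.64 and 11.81 in MSCs, and its standard deviation over the 8 arrays, 0.18 on the fitted scale, was at percentile 4.68 of all genes tested. The difference between reprogrammed and differentiated cells was 0.03 with an interval from -0.49 to 0.54. Sel1l, the adaptor of the ubiquitin ligase HRD1, differed by -0.05 with an interval from -0.57 to 0.47, although another bright probe of it separated the states. The median standard deviation over the 33 genes was 0.521, against 0.437 over all genes tested, and the widest were Trib3 at 1.56, Chac1 at 1.15, Kdelr3 at 1.13 and Calr at 1.02.

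Of the sensors, Ern1 encodes IRE1 alpha, and it stood at 7.44, 7.57 and 7.20 in reprogrammed cells, 8.19, 8.05 and 8.19 in differentiated cells and 8.15 and 7.69 in MSCs. All reprogrammed arrays were below all the others. The fitted difference, reprogrammed minus differentiated, was -0.69 (SE 0.22, adjusted p = 0.13), and -0.26 in the blocked fit. Xbp1, whose mRNA IRE1 splices, showed the same order at a smaller size, with 11.49, 11.59 and 11.32 in reprogrammed cells, 12.08, 11.71 and 11.70 in differentiated cells and 11.61 and 11.70 in MSCs. Its reprogrammed arrays were below all the others. Differentiated cells passed MSCs only by the margin of differentiated osteocytes (11.7048) over MSC p4 (11.704). The difference, reprogrammed minus differentiated, was -0.37 (SE 0.21, adjusted p = 0.346). Atf6 and the PERK gene Eif2ak3 stayed between 1.37 and 4.65 on every array, under the level of 6, and so give no comparison.

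Ddit3 encodes CHOP, a transcription factor linked to death of stressed cells, and stood at 8.73, 8.58 and 9.46 in reprogrammed cells, 11.39, 9.45 and 9.69 in differentiated cells and 9.64 and 9.01 in MSCs. The differentiated adipocyte array was far above the other 7, which overlapped. The difference, reprogrammed minus differentiated, was -1.23 (SE 0.52, adjusted p = 0.212), and -0.62 in the blocked fit. Atf3, a further stress-induced factor, was at 8.75 in differentiated adipocytes and under 6 on every other array, so it was at least 5.59-fold higher there than in MSCs or in reprogrammed adipocytes. Of the membrane-bound factors related to ATF6, Creb3 differed by -0.54 (SE 0.28, adjusted p = 0.289) between reprogrammed and differentiated cells, and Creb3l2 by -0.06 (SE 0.36, adjusted p = 0.942). The differentiated chondrocyte array was the highest of the 8 for both, at 10.60 and 8.40. Another bright probe of Creb3 ran against this one over the 8 arrays (r = -0.34), and that of Creb3l2, although also highest in differentiated chondrocytes, was uncorrelated with it (r = -0.08).

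By the probes used here, Atf4 and 3 of its targets had the same order of lineages in both states. Atf4 stood at 12.49, 12.20 and 11.66 in reprogrammed cells, 12.47, 11.68 and 10.96 in differentiated cells and 11.85 and 12.55 in MSCs. Asns, the asparagine synthetase gene, stood at 12.52, 11.99 and 11.22 in reprogrammed cells, 12.35, 12.01 and 10.86 in differentiated cells and 11.00 and 12.58 in MSCs. In both states adipocytes were highest and osteocytes lowest, and MSC p4 stood above MSC d0. Another bright probe of Atf4 broke this order in reprogrammed cells, at 10.47, 9.76 and 10.02.

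Chac1, which encodes an enzyme that breaks down glutathione, stood at 10.71, 9.87 and 8.93 in reprogrammed cells, 11.80, 10.82 and 9.69 in differentiated cells and 8.36 and 11.21 in MSCs. Trib3, a pseudokinase induced by ATF4 and CHOP, stood at 7.83, 6.85 and 6.14 in reprogrammed cells, 10.98, 8.09 and 6.41 in differentiated cells and 5.61 and 7.85 in MSCs. Both genes kept the order of adipocytes over chondrocytes over osteocytes in each state. That order in both states, looked for after these values had been seen, held for 5 of the 33 ER genes (15.2%), Hspa5 being the fifth, and for 492 of 8317 genes (5.92%). The order was not tested, and at Atf4 it depended on the probe.

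The differences between reprogrammed and differentiated cells were 0.41 for Atf4, 0.17 for Asns, -0.92 for Chac1 and -1.47 for Trib3, with adjusted p from 0.432 to 0.885. In the blocked fit they were -0.28, -1.41, -3.72 and -3.40, so that for Atf4 and Asns the direction turned. That fit goes through the MSC arrays, which were themselves far apart at these genes: MSC p4 exceeded MSC d0 by 2.79 at Chac1 and 1.58 at Asns, and by at least 3.08-fold at Trib3. Without the differentiated osteocyte array Asns differed by -0.27, and without the reprogrammed adipocyte array by -0.13.

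Ppp1r15a encodes GADD34, which guides the phosphatase that reverses the phosphorylation of eIF2 alpha. It stood at 7.50, 7.33 and 7.72 in reprogrammed cells, 9.46, 7.97 and 8.45 in differentiated cells and 7.64 and 8.03 in MSCs. Reprogrammed arrays were all below differentiated ones, with the differentiated adipocyte array highest. The difference was -1.06 (SE 0.37, adjusted p = 0.151), and -1.42 in the blocked fit.

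**Figure D4:**
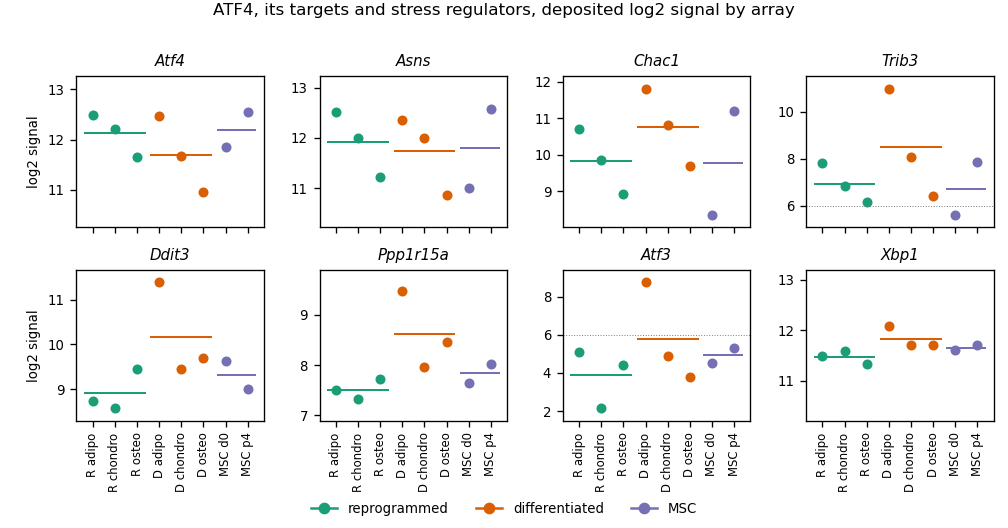
Deposited log2 signal (vertical axes, each panel with its own range) of Atf4, its targets and stress regulators on the 8 arrays (horizontal axes), with points for arrays and lines for state means; R is reprogrammed, D differentiated, and the dotted line marks a signal of 6. Differentiated adipocytes stand out at Trib3 (10.98), Ddit3 (11.39), Ppp1r15a (9.46) and Atf3 (8.75), and the MSC points are far apart at Asns, Chac1 and Trib3.

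The element to which ATF4 binds with C/EBP partners (CARE, TGATGNAAN) was found in 5 of the 34 ER genes with a window (14.7%). Over all genes with a window the share was 1215 of 27025 (4.5%). The 5 genes were Asns, Atf3, Chac1, Herpud1 and Trib3. The cyclic AMP response element (CRE, TGACGTCA) was found at Ppp1r15a alone, 2.94% against 2.03% of genes. The CARE sites are printed on their own strand with the fixed letters in capitals.
Asns, chr6:7693224-7693232, minus strand: TGATGaAAc
Atf3, chr1:191183436-191183444, plus strand: TGATGcAAg
Chac1, chr2:119351048-119351056, minus strand: TGATGcAAc
Herpud1, chr8:94386316-94386324, minus strand: TGATGcAAc
Trib3, chr2:152344039-152344047, plus strand: TGATGtAAa
The Chac1 window, chr2:119350992-119351291 on the plus strand, holds the element in reverse, 194 to 186 bases before the start.
Chac1: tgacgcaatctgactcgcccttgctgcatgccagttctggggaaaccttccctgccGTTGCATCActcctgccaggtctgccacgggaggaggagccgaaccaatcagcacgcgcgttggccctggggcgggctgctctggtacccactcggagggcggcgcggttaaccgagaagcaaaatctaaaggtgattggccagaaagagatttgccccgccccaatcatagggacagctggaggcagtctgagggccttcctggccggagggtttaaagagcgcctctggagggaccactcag
Herpud1 carries the element and hardly varied, whereas Chac1 and Trib3 carry it and were among the most variable ER genes.

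Single cell types were compared by size alone, since 1 array per type allows no test, and a log2 difference of 1 or more was counted. Here 34 ER genes and 9069 genes in all reached a signal of 6 on at least 1 array. Differentiated adipocytes were at least 2-fold above both MSC arrays at 5 ER genes (14.7%, against 9.33% of all genes), all of them from the stress side or Dnajb9. The differences were 4.002 for Trib3, 2.20 for Dnajb9, 2.03 for Ddit3 and 1.56 for Ppp1r15a, with Atf3 as the fifth. They were at least 2-fold below at 5 others (against 10.3%), namely Kdelr3 (-2.37), Kdelr2 (-1.79), Sec24d (-1.60), Pdia3 (-1.30) and Ssr1 (-1.28). Against MSC d0 or MSC p4 alone, a comparison added after the data had been seen, 7 to 9 were lower.

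Differentiated chondrocytes were higher than both MSC arrays at 2 ER genes (against 6.87%), Kdelr3 (1.52) and Creb3l1 (1.43), and lower at Sdf2l1 alone (-1.28, against 3.09%). They were higher at 5 against MSC d0 alone and lower at 4 against MSC p4 alone. Differentiated osteocytes were higher at 0 (against 4.53%) and lower at Sec24d alone (-1.58, against 2.47%). Their count of lower genes was 9 against MSC p4 alone and 1 against MSC d0 alone.

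Reprogrammed adipocytes against differentiated adipocytes gave the longest lists. In this pair 13 ER genes were at least 2-fold higher (38.2%, against 16.5% of all genes) and 6 lower (17.6%, against 16.7%). The higher ones included Kdelr3 (2.28), Kdelr2 (2.19), Calr (2.04), Sec24d (1.64), Hyou1 (1.43), Hsp90b1 (1.41) and Hspa5 (1.33). The lower ones were Trib3 (-3.06), Ddit3 (-2.62), Dnajb9 (-2.21), Ppp1r15a (-1.88), Chac1 (-1.09) and Atf3. Fat cell and collagen signal differed in the same pair: Adipoq was at 4.35 in reprogrammed and 14.56 in differentiated adipocytes, and Col1a1, the type I collagen gene, at 10.09 in reprogrammed and 3.62 in differentiated adipocytes. The part of this change in the ER genes was not tested.

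Reprogrammed chondrocytes exceeded differentiated chondrocytes by at least 2-fold at Sdf2l1 (1.75) and Calr (1.03), or 2 genes against 8.5% of all. They were lower at 5 (against 10.9%), with Kdelr3 at -1.55, Creb3l1 at -1.49, Trib3 at -1.14, Creb3 at -1.12 and Atf3 dim on both arrays. Another bright probe of Creb3 went the other way, at 6.93 in reprogrammed and 6.03 in differentiated chondrocytes. Reprogrammed osteocytes exceeded differentiated osteocytes at 6 ER genes (against 7.93%), led by Calr at 2.48, Creb3l1 at 2.04 and Kdelr2 at 1.36, and were lower at 0 (against 11%). Calr and Sdf2l1 were thus at least 2-fold higher in each of the 3 lineages.

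**Figure D5:**
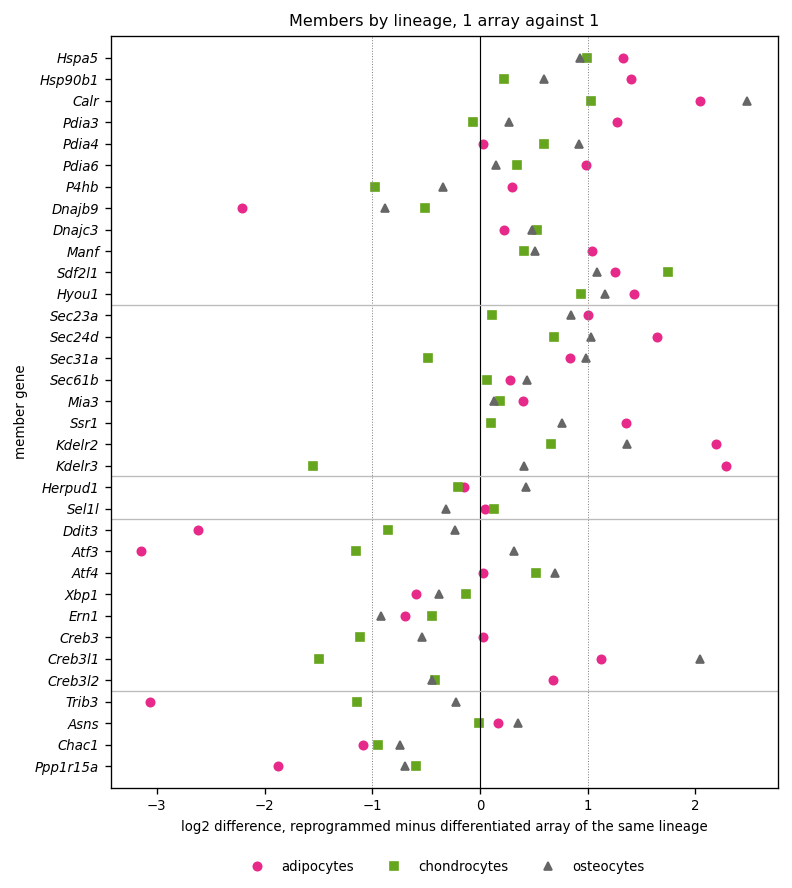
Log2 difference of the reprogrammed minus the differentiated array of the same lineage (horizontal axis) for 34 ER genes in rows, grouped by grey lines into chaperones, transport, degradation, regulators and ATF4 targets; dotted lines mark -1 and 1, and each point is 1 array against 1. Calr and Sdf2l1 lie beyond 1 in every lineage, adipocytes (circles) spread widest, and Kdelr3 and Creb3l1 fall on opposite sides for chondrocytes (squares) and the other lineages.

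Reprogrammed cells were also set against both MSC arrays. Reprogrammed adipocytes and chondrocytes had 0 ER genes at least 2-fold from both MSC arrays in either direction, against 0.143% higher and 0.871% lower of all genes for adipocytes and 0.143% and 0.011% for chondrocytes. Against MSC d0 alone reprogrammed adipocytes had 6 higher. Reprogrammed osteocytes had 2 higher (against 0.827%), Calr at 1.94 and Creb3l1 at 2.10, and 0 lower (against 0.441%). As states, reprogrammed arrays lay above both MSC arrays at Kdelr2 and Sdf2l1 (2 of 33, against 4.86%) and below both at Creb3, Ern1, P4hb and Xbp1 (4 of 33, against 8.72%). At Creb3 this depended on the probe, since another bright one put reprogrammed chondrocytes (6.93) above both MSC arrays. Differentiated arrays lay above both at Dnajb9 and Xbp1 (2 of 33, against 11.8%) and below both at 7, Calr, Dnajc3, Hspa5, Hyou1, Kdelr2, Sdf2l1 and Sec24d (21.2%, against 12.2%). At Xbp1 differentiated osteocytes (11.7048) were barely above MSC p4 (11.704).

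The MSC arrays differed between themselves at genes of both sides. By the size rule 4 ER genes were higher on MSC p4 than on MSC d0 (against 6.38% of all genes) and 0 lower (against 8.03%). These were Chac1, Trib3, Asns and Hspa5, the last at 1.03. MSC p4 shares the p-titled set with reprogrammed cells, and of the 11 genes higher on every reprogrammed than on every differentiated array, 9 were also higher on MSC p4 than on MSC d0. Within the d-titled set 7 of the 11 (63.6%) had every differentiated array below MSC d0, and within the p-titled set 3 of the 11 (27.3%) had every reprogrammed array above MSC p4. Of the 1143 genes of the array with that separation of states, 83.6% were higher on MSC p4 than on MSC d0, 64.8% had every differentiated array below MSC d0 and 21.2% every reprogrammed array above MSC p4, so the ER genes were near these shares. Those 3 were Kdelr2, Pdia4 and Sdf2l1. For the 4 genes lower on every reprogrammed array, 3 had every differentiated array above MSC d0 (against 58.6% of the 1344 such genes of the array) and 3 had every reprogrammed array below MSC p4 (against 31.2%). What part of these differences belongs to the state and what part to the array set cannot be told apart beyond these values.

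The 8 arrays also show which ER genes ran together, as a description without a test, over points that share lineage, state and array set. Trib3 and Chac1 correlated at r = 0.89, Asns and Chac1 at 0.84 and Asns and Atf4 at 0.86. Ddit3 and Ppp1r15a, a further pair, correlated at 0.92, and Ddit3 with Dnajb9 at 0.88. Asns and Ddit3, both counted as stress genes, correlated at -0.08. Ddit3 and Kdelr2 ran opposite, at -0.89. By rank, Spearman's rho of these pairs, in the order given, was 0.98, 0.81, 0.88, 0.76, 0.74, -0.43 and -0.69. The differentiated adipocyte array was the highest at Ddit3, Ppp1r15a and Dnajb9 and the lowest at Kdelr2.

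Col1a1 was used to ask which ER genes followed the main collagen cargo of skeletal cells, again as a description over 8 arrays. Its signal was 10.09, 10.30 and 11.63 in reprogrammed cells, 3.62, 12.37 and 8.31 in differentiated cells and 10.41 and 9.25 in MSCs. The genes most like it by Pearson's r were Sec31a (r = 0.95), Pdia3 (0.89), Sec61b (0.88), Kdelr3 (0.83) and Hsp90b1 (0.82), with Creb3l1 sixth of 33 at 0.80. The place of Sec31a depends on the probe. Its other bright probe ran against this one (r = -0.69) and was highest, at 6.99, on the differentiated adipocyte array. By rank, Spearman's rho was 0.93 for Sec31a and 0.81 for Sec61b but 0.62 for Pdia3, 0.55 for Kdelr3, 0.38 for Hsp90b1 and 0.60 for Creb3l1. Ppp1r15a (r = -0.84, rho = -0.55) and Xbp1 (r = -0.79, rho = -0.41) were least like it by r. The differentiated adipocyte array, with the lowest Col1a1 signal, lies at one end of each of these relations.

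Of 185 other genes of these pathways, 176 had a named probe and 147 were tested. In reprogrammed minus differentiated cells 13 of the 147 were higher and 11 lower without adjustment, against 10.9% and 11.7% of all genes. With adjustment 0 were lower (against 0.397%), and 1 passed and was higher (against 0.252%). It was Sec23ip, which encodes a COPII-binding protein, with 1.56 (SE 0.22, adjusted p = 0.032). It stood at 6.36, 6.05 and 6.13 in reprogrammed cells, 3.43, 3.97 and 3.998 in differentiated cells and 5.56 and 6.07 in MSCs, so that differentiated cells and MSC d0 were under 6, and it was at least 1.11-fold higher. Sec23ip thus entered the test only through the reprogrammed arrays and MSC p4, where it is high. In the blocked fit its difference was 1.16 (adjusted p = 1), and the call was lost.

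Spcs3, a subunit of the signal peptidase, came next to it at 1.98 (SE 0.39, adjusted p = 0.0713), with 11.79, 11.45 and 11.43 in reprogrammed cells, 8.73, 9.85 and 10.07 in differentiated cells and 10.54 and 11.38 in MSCs. Its states did not overlap, and the difference was 1.15 in the blocked fit (adjusted p = 1). Nupr1, a stress-induced chromatin protein and ATF4 target, was the lowest of the amino acid response genes at -2.13 (SE 0.48, adjusted p = 0.0779), and Phgdh, the first enzyme of serine synthesis, the highest at 1.30 (SE 0.61, adjusted p = 0.258), with the direction turned to -1.34 in that fit. Bcl2l11, the death inducer BIM, stood at -1.48 (SE 0.38, adjusted p = 0.0955), and -0.41 in the blocked fit. Among other folding genes Fkbp11, a prolyl isomerase of secretory cells, differed by 1.56 (SE 0.66, adjusted p = 0.212) and Creld1, a membrane protein of the ER, by -2.02 (SE 0.66, adjusted p = 0.135).

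Differentiated cells minus MSCs gave 0 passing pathway genes by limma, with 4 of 147 higher and 5 lower unadjusted, against 4.64% and 5.74% of all genes. Reprogrammed cells minus MSCs gave 0, with 0 unadjusted in either direction, against 0.12% and 0.204%. The 147 genes were higher on every reprogrammed than on every differentiated array at 20 (13.6%) and lower at 14 (9.52%), against the 13.7% and 16.2% of all genes given before. Their list medians in that comparison were 0.21 for 28 other translocation and glycosylation genes, 0.06 for 30 other folding genes, 0.07 for 27 amino acid response genes, 0.05 for 34 vesicle genes, -0.08 for 11 regulators and -0.28 for 17 degradation genes. In the blocked fit the median of the amino acid response genes turned to -0.67, with 4 of 27 above 0. It was 0.30 for the folding genes, with 25 of 30 above 0, 0.12 for translocation and glycosylation, 0.15 for vesicle genes, -0.05 for regulators and -0.02 for degradation genes.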

How the data were processed

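Total RNA of 8 samples was extracted with a Qiagen kit and amplified to biotin-labelled cRNA with an Ambion kit for Illumina arrays, per the labels' protocols. The values are the authors' deposited log2 signals of 45281 probes. What software, background correction and normalization made them is not given in the labels used here. Above a log2 of 2 the sorted columns lay within 0.0175 of each other, as quantile normalization leaves them, and ended at 0. A table of signals before normalization has 16 value columns whose names match no sample and was not used here. The number of arrays limits the precision.

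Groups came from the labels' cell types. Symbols came from the platform annotation (34885 probes with 1, 18 with several, 10378 unnamed) and, for 34807, from RefSeq (GRCm38.p6) through Entrez identifiers. Values x became log2(2 to the power x, plus 16). Genes at 6 on at least 2 arrays were tested with limma 3.58.1 (lmFit, eBayes, R 4.3.3), two-sided, with Benjamini-Hochberg adjustment over 8317 genes; every adjusted p is from this test. Single arrays were compared by a log2 difference of at least 1 over 9069 genes at 6 on 1 array or more. A gene under 6 on every array of one side has only a bound, taken from the higher of its value and 6.32, the level after the offset. Promoter windows came from RefSeq. Alternatives were the offset, the level, the mean of probes, the array set or the lineage as a block, the arrays in the fit, a trend in eBayes and leaving out each array. The state test was tested on simulated data. The 39 genes, the pathway lists and the tests were chosen with earlier results of these data known. All 39 may be named, as may of each pathway list those that passed, or else the largest difference in each direction, and cell type markers.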

Additional observations from a re-analysis of the deposited data

Results flagged for a closer look

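In differentiated cells minus MSCs, Kdelr3 differed between lineages in direction. The log2 difference was -2.37 for adipocytes and -1.11 for osteocytes but 1.52 for chondrocytes, a gap of 3.89 between adipocytes and chondrocytes. In reprogrammed minus differentiated cells of the same lineage it was 2.28 for adipocytes, -1.55 for chondrocytes and 0.40 for osteocytes, a gap of 3.83. Both comparisons rest on the same differentiated arrays.

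Creb3l1 differed in the same way in reprogrammed minus differentiated cells. It stood at 1.13 for adipocytes, where the differentiated array was under 6 and the bound is at least 1.36-fold, at -1.49 for chondrocytes and at 2.04 for osteocytes, a gap of 3.53 between chondrocytes and osteocytes. With 1 array per cell type these differences between lineages were not tested. Col1a1 moved beside them, at 10.09, 10.30 and 11.63 on the reprogrammed and 3.62, 12.37 and 8.31 on the differentiated adipocyte, chondrocyte and osteocyte arrays, and macrophage markers reached a signal of 6 most often on the differentiated chondrocyte array. Their part was not tested.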

How the results depend on the processing

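No paired analysis was possible by replicate number, because the labels give the groups none to share. A fit paired by lineage was run for reprogrammed minus differentiated cells, and the lowest adjusted p of an ER gene there was 0.11 (limma). No ER gene passed in any alternative tried. The 20 differences of ER genes tried were those at an unadjusted p under 0.05 by limma, with Trib3, Chac1 and Asns added. The added genes were tried in reprogrammed minus differentiated cells. Since most were picked by the same fit, and most alternatives share its arrays, a kept direction was likely beforehand. Of their 334 alternative values, 331 kept their direction. The other 3 were Asns in reprogrammed minus differentiated cells, at -1.41 in the blocked fit, -0.27 without the differentiated osteocyte and -0.13 without the reprogrammed adipocyte array (-0.265 to 0.513 with any 1 array left out). The cause was not tested. Among ER genes outside those 20, Atf4, Creb3l2, Dnajc3, Herpud1, Kdelr3, Pdia6 and Sel1l also turned in the blocked fit of reprogrammed minus differentiated cells.

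Genes of the array called in differentiated cells minus MSCs (5) numbered 2 with no offset, 10 with an offset of 64, 3 with no filter, 9 at a level of 7, 1 in the blocked fit, 0 on the arrays compared alone and 10 with a trend, and 1 to 57 with an array left out, 57 without differentiated adipocytes. Those in reprogrammed minus differentiated cells (54) numbered 0 in the blocked fit, 7 with the lineage as a block and 2 to 216 with an array left out, 216 without differentiated adipocytes and 2 without any 1 of the reprogrammed arrays. The median of the ER genes there was 0.061 in the blocked fit and 0.145 to 0.411 with an array left out. In differentiated cells minus MSCs it was -0.395 to 0.019. The called pathway genes in reprogrammed minus differentiated cells (1) numbered 0 in the blocked fit and 0 to 4 with an array left out, 4 without differentiated adipocytes.

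Counts at 2-fold against MSCs moved as follows. Lower in differentiated adipocytes (5) became 9 with no offset, 3 with an offset of 64 and 7 to 9 against 1 MSC array. Lower in differentiated chondrocytes (1) became 0 with an offset of 64 and 1 to 4 against 1 MSC array, and higher (2) became 1 with the mean of probes and 3 to 5. Lower in differentiated osteocytes (1) became 0 with an offset of 64 and 1 to 9, and higher (0) became 1 against either MSC array alone. For reprogrammed adipocytes higher (0) became 0 to 6. For reprogrammed chondrocytes lower (0) became 1 with no offset and 1 to 2, and higher (0) became 0 to 2. For reprogrammed osteocytes lower (0) became 0 to 4. Of reprogrammed against differentiated chondrocytes, higher (2) became 4 with no offset and 1 with an offset of 64, and lower (5) became 3 with an offset of 64 and 2 with the mean of probes. Of reprogrammed against differentiated osteocytes, higher (6) became 3 with an offset of 64. Signals near or under 6 set the limit for Manf, Hyou1 and Creb3l1, whose differences are damped by the offset.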

Other observations

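The other probes of the ER genes add some patterns. Of 38 genes, 23 had several probes, and 12 of them had 13 further probes at a signal of 6 on at least 2 arrays. Over the 8 arrays 6 of these correlated with the chosen probe at r of at least 0.8, among them the probes of Asns, and 4 correlated below 0, at Creb3, Creb3l2, Sec31a and Sel1l. The further probe of Sel1l stood at 8.27, 8.68 and 8.28 on the reprogrammed adipocyte, chondrocyte and osteocyte arrays, against 7.61, 7.35 and 7.28 on the differentiated ones, and at 7.75 and 8.27 on MSC d0 and MSC p4. All reprogrammed arrays were above all differentiated ones, which the chosen probe did not show. Which transcripts these probes read was not tested.

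The genes under a signal of 6 on every array give only levels. Canx, the membrane-bound partner of calreticulin, stayed between 3.13 and 4.89, and Edem1, which speeds the degradation of misfolded glycoproteins, between 4.64 and 5.90.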
